A study of Mus musculus with 6 samples.

Results

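DNA methylation was examined at 10 maternally methylated imprint control regions of the mouse genome, named here after the imprinted genes Peg10, Mest, Peg3, Snrpn, Plagl1, Grb10, Zrsr1, Igf2r, Impact and Nnat. The regions are defined by position on the mm9 build. Each was an interval of 4 to 7 kb around the known methylated element. CpG sites were used where all 6 libraries had 10 or more reads. Of 943307 such sites in the genome, 246 lay in the 10 regions, out of 419 region sites seen in any library. Every region kept sites: 5 in Peg3, 10 in Snrpn, 11 each in Peg10 and Mest, 15 in Igf2r, 20 in Impact, 34 in Nnat, 40 in Plagl1, 49 in Grb10 and 51 in Zrsr1. The level of a site is the percent of its reads that were methylated, and the level of a region in a library is the mean over its sites.

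All kidneys came from male wild-type C57BL/6J mice, and DNA was taken from cortex and outer medulla. In the UUO 5AZA group (2 libraries) the left ureter was ligated and cut, which obstructs the kidney and leads to fibrosis, and tissue was labelled day 7. These mice received daily intraperitoneal 5AZA in saline at 1 mg/kg; 5AZA is a common short form for azacytidine-type inhibitors of DNA methyltransferases. The UUO saline group (2 libraries) had the same obstruction for 7 days with daily saline. The sham group (2 libraries) had surgery without ligation. Sham 1 was the sham for the day 7 obstruction, while sham 2 was labelled as a sham for kidney ischemia/reperfusion and carries 48 h in its name. The labels do not say whether the libraries of a group came from separate mice, so the spread between them may be technical. In whole tissue, a change in the mix of cells and a change within cells cannot be told apart. The files hold methylation and no expression, so the tissue label could not be checked against marker genes.

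Reads summed over CpG sites ranged from 37728517 in sham 2 to 76730132 in saline 1. At the region sites the median coverage was 64 and 56 reads in the 5AZA libraries, 92 and 71 reads in the saline libraries, and 69.5 and 38 reads in sham 1 and sham 2. Over all 943307 sites the mean level was 43.5% and 43.1% in the 5AZA libraries, 45.3% and 45.3% in the saline libraries, and 44.4% and 42.9% in sham 1 and sham 2. Sham 2 was thus the shallowest library and had the lowest mean level, so the comparisons with sham are also given without it.

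Genomic imprinting silences 1 parental copy of certain genes in all or most tissues. At a maternally methylated control region the egg's copy carries methylated CpGs and the sperm's copy does not, and the difference is kept in body cells through each round of DNA replication. Maintenance depends on the methyltransferase DNMT1 and, in the early embryo, on the zinc finger protein ZFP57, which binds methylated copies of a short CpG-containing word. Because both copies are read together in kidney DNA, a region of this kind gives an intermediate level in bulk sequencing.

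The sequences of 4 region promoters are shown because they let each measured CpG be seen in its bases, including those in the word CCGG at which MspI cuts the DNA for this assay. They are RefSeq promoter windows on GRCm38.p6, 250 bases before to 50 bases after the start of the gene, printed 5′ to 3′ along the gene's strand. Windows were available for 8 of the 10 genes. Measured CpGs were placed in them by the spacing between neighbouring CpGs alone, with no conversion of coordinates between builds, and 4 windows held measured sites. Capitals mark the measured CpGs (CG), written as CCGG where the measured CpG lies inside an MspI site.
Snrpn, chr7:60005150-60005449, minus strand: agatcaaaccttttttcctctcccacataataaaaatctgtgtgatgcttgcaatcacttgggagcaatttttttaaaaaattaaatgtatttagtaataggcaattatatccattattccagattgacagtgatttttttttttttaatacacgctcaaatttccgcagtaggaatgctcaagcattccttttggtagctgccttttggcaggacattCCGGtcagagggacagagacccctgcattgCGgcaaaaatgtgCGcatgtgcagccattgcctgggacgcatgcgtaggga
Plagl1, chr10:13090582-13090881, plus strand: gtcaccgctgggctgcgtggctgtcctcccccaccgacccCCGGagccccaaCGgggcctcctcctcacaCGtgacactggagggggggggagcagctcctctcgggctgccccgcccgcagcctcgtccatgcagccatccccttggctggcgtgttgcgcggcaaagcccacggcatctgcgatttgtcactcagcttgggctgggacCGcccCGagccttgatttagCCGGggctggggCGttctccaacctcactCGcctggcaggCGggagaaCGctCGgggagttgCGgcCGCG
Zrsr1, chr11:22971755-22972054, plus strand: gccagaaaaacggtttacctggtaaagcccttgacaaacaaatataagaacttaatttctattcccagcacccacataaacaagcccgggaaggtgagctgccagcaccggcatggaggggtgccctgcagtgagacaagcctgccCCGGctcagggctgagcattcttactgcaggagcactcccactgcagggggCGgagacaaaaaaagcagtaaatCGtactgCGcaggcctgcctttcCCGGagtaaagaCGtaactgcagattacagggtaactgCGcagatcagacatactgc
Nnat, chr2:157559828-157560127, plus strand: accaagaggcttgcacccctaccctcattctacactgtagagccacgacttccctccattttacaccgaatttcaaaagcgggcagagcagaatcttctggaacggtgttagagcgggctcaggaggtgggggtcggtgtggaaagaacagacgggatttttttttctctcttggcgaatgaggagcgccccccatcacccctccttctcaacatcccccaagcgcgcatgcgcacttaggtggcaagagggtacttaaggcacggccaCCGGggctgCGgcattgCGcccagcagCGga
Snrpn held 3 placed sites (the next best placement held 1), Plagl1 14 (next best 1), Zrsr1 7 (next best 1) and Nnat 4 (next best 2).

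The 28 placed sites fell into 2 kinds by sequence. All 6 that lie in CCGG had high levels, between 73.3% and 87.2% as the mean over the 6 libraries, with a median of 82.5%. The other 22 lay between 23.6% and 57.1%, with a median of 39.1%. In Snrpn the CCGG site 30 bases before the start had 77.2%, while the next CpGs downstream, 1 base before and 13 bases after the start, had 41.7% and 42.9%. In Zrsr1 the measured CCGG sites, both before the start, had 82.2% and 82.9%, whereas the 5 other measured CpGs of the window lay between 42.9% and 45.6%. In Nnat the CCGG site had 87.2% and its neighbour 8 bases downstream 48.5%. In Plagl1 the inner CpGs differed along the window: those from 198 to 35 bases before the start had 37.1% to 39.9%, and those from 8 bases before to 49 bases after it had 23.6% to 29.4%. The word TGCCGC, a core of the word bound by ZFP57, was searched on both strands. It occurred once each in the Snrpn, Plagl1 and Nnat windows and not in the Zrsr1 window, and in 11.6% of 32851 RefSeq promoter windows of the same length, while CCGG occurred in 52.8%. No copy overlapped a CCGG. Its CpG was measured in Snrpn (41.7%) and Nnat (48.5%).

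Over all 246 sites, of which most have no sequence placed here, levels also fell into 2 ranges. By mean level over the 6 libraries, 187 sites lay between 22.1% and 64.7% with a median of 42.3%, and 59 lay between 69.8% and 98.1% with a median of 84.8%; they are called inner and high sites here. The line between them, 65%, was set after the levels were seen. Each region held both kinds, from 2 high sites of 11 in Peg10 and 2 of 5 in Peg3 to 14 of 51 in Zrsr1. Of the 49 spacings between neighbouring high sites of a region, 37 (75.5%) were of 40 to 220 bp, the insert sizes selected for the libraries, and the median spacing was 136 bp. Per the labels' protocol the MspI ends were repaired with nucleotides that included methylated dCTP, so a filled-in cytosine is read as methylated. Its part in the level of the high sites was not tested. Levels are therefore given both over all sites and over inner sites.

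**Figure D1:**
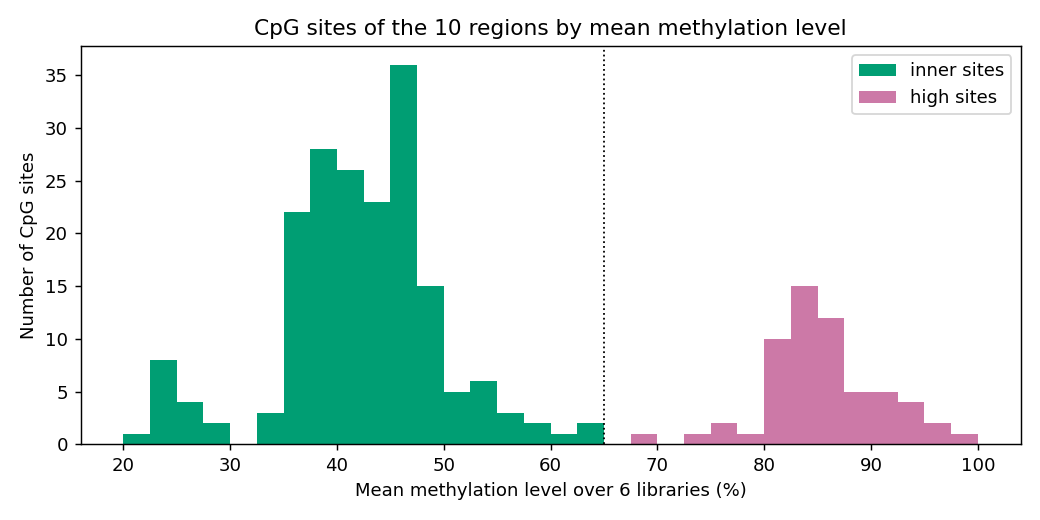
Histogram of the 246 CpG sites of the 10 regions by their mean methylation level over 6 libraries (x axis, percent; y axis, number of sites), with the 187 inner sites and the 59 high sites in different colours and a dotted line at 65%. No site lies between 64.7% and 69.8%.

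Over inner sites all 10 regions had an intermediate level in kidney, with means over the 6 libraries from 36.1% to 49.1%. In order, Peg3 had 49.1%, Nnat 46.6%, Mest 46.5%, Peg10 45.7%, Grb10 44.6%, Snrpn 42.9%, Igf2r 41.9%, Zrsr1 41.6%, Impact 37.1% and Plagl1 36.1%. Neighbours in this order differed by less than the spread between libraries. Of the 60 inner levels (10 regions in 6 libraries), 54 were below 50%. With high sites included, the means over 6 libraries ranged from 44.2% in Plagl1 to 65.7% in Snrpn, in which 5 of 10 sites are high. No region was at or near full or absent methylation in any library.

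**Figure D2:**
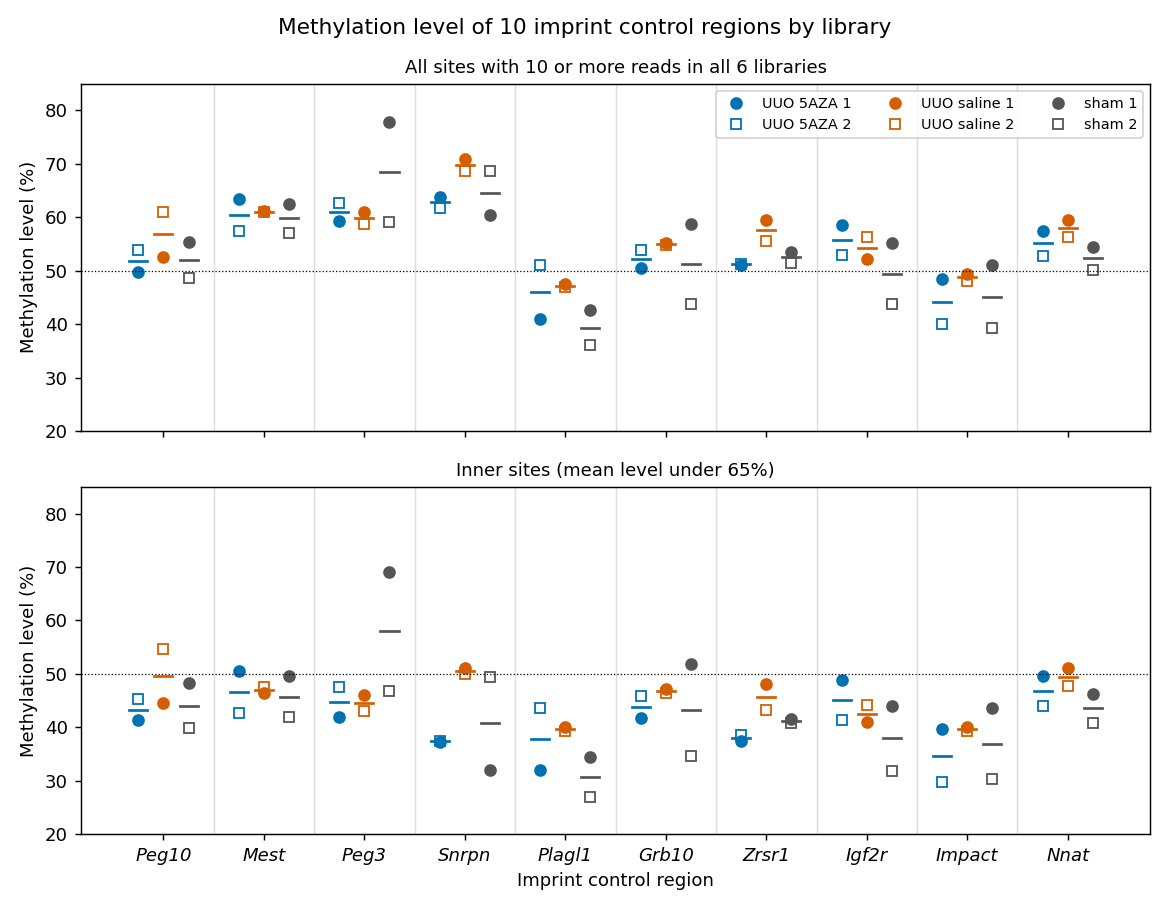
Methylation level (y axis, percent) of each of the 10 regions (x axis) in every library, over all sites (upper panel) and over inner sites (lower panel), with UUO 5AZA, UUO saline and sham from left to right in each region, replicate 1 as filled circles, replicate 2 as open squares and short bars for group means. The dotted line marks 50%; all inner values lie between 27.0% (sham 2, Plagl1) and 69.1% (sham 1, Peg3).

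Averaged over the 10 regions, the level was 54.3% and 53.8% in the 5AZA libraries, 56.9% and 56.8% in the saline libraries, and 57.2% and 49.8% in sham 1 and sham 2. The group means were 54.0% ± 0.387 in UUO 5AZA, 56.8% ± 0.0817 in UUO saline and 53.5% ± 5.22 in sham (n = 2 each, SD). The 5AZA pair was below the saline pair, and the sham libraries lay on either side of all others. Over inner sites the levels were 42.1% and 41.6% in the 5AZA libraries, 45.6% and 45.6% in the saline libraries, and 46.1% and 38.4% in sham 1 and sham 2. Sham 2 was the lowest library in 7 of the 10 regions over all sites and in 6 over inner sites. Sham 1 was above all other libraries in Peg3, Grb10 and Impact.

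Peg10, Mest, Peg3 and Plagl1 are paternally expressed genes linked to growth and development. Peg10 is derived from a retrotransposon and is needed for the mouse placenta. Its region (chr6:4696001-4700000, mm9) had 49.7% and 53.9% in the 5AZA libraries, 52.6% and 61.0% in the saline libraries, and 55.4% and 48.7% in sham 1 and sham 2. The 3 groups overlapped. The group means were 51.8% ± 2.93 in 5AZA, 56.8% ± 5.98 in saline and 52.1% ± 4.71 in sham (n = 2 each, SD).

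Mest encodes a protein of the alpha/beta hydrolase family expressed in mesoderm-derived tissue. Its region (chr6:30684001-30690000) had the narrowest range between libraries of the 10. It had 63.4% and 57.5% in the 5AZA libraries, 61.2% and 60.9% in the saline libraries, and 62.6% and 57.0% in sham 1 and sham 2. The saline libraries lay inside the range of both other groups. The saline minus sham difference was 1.30 percentage points and the 5AZA minus saline difference −0.620 points, with edgeR adjusted p of 0.907 and 0.941.

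Peg3 encodes a large zinc finger protein that affects growth and maternal behaviour in mice. Its region (chr7:6678001-6685000) had 59.2% and 62.7% in the 5AZA libraries, 61.0% and 58.8% in the saline libraries, and 77.8% and 59.2% in sham 1 and sham 2. Sham 1 stood well above the other 5 libraries, which lay close together. Peg3 was the one region with a lower mean in saline (59.9% ± 1.55) than in sham (68.5% ± 13.2; SD, n = 2 each), with a difference of −8.62 points (edgeR adjusted p = 0.519). Without sham 1 this difference was 0.687 points. The region holds only 5 sites, of which the 3 inner ones sit in 1 stretch that shares its reads.

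Plagl1 encodes a zinc finger transcription factor that slows cell division. Its region (chr10:12808001-12813000) had 40.9% and 51.1% in the 5AZA libraries, 47.4% and 47.0% in the saline libraries, and 42.7% and 36.0% in sham 1 and sham 2. The saline pair was above the sham pair, while the 5AZA libraries lay on either side of the saline pair. The saline mean of 47.2% ± 0.293 was 7.88 points above the sham mean of 39.4% ± 4.71 (SD, n = 2 each; edgeR adjusted p = 0.426), and this was the widest positive difference of the 10 regions over all sites; over inner sites Snrpn was wider (9.79 against 8.94 points). The difference was 4.55 points without sham 2 and 11.2 points without sham 1. The 5AZA mean of 46.0% ± 7.21 was 6.66 points above the sham mean (adjusted p = 0.246). This difference was 3.34 points without sham 2, 9.99 points without sham 1, 1.57 points without 5AZA 2 and 11.8 points without 5AZA 1.

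Snrpn and Zrsr1 encode proteins of the splicing machinery. Snrpn encodes SmN, a spliceosome core protein most abundant in brain, and its control region governs the domain that corresponds to the human Prader-Willi and Angelman syndrome region. The Snrpn region (chr7:67146001-67152000) had 63.8% and 61.8% in the 5AZA libraries, 70.8% and 68.7% in the saline libraries, and 60.4% and 68.7% in sham 1 and sham 2. The 5AZA pair was below the saline pair, and sham 1 lay below all others while sham 2 was level with saline 2. Over its 5 inner sites the levels were 37.2% and 37.5% in the 5AZA libraries, 51.1% and 49.9% in the saline libraries, and 32.1% and 49.4% in sham 1 and sham 2.

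The 5AZA minus saline difference of Snrpn was −6.99 points over all sites (edgeR adjusted p = 0.965) and −13.2 points over inner sites (edgeR adjusted p = 0.122). The p-values come from summed reads, in which deeply covered sites weigh more than in a mean over sites. As methylated reads over all reads, the same difference was −0.0732 points, and the saline minus sham difference, 5.24 points over all sites, was −0.298 points. The result for Snrpn thus depended on how its 10 sites were weighted more than that of any other region.

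Zrsr1 is a retrogene related to the splicing factor U2AF, and it lies within an intron of another gene. Its region (chr11:22871001-22875000) had 51.1% and 51.3% in the 5AZA libraries, 59.5% and 55.6% in the saline libraries, and 53.5% and 51.5% in sham 1 and sham 2. The saline pair lay above all 4 other libraries, and the 5AZA pair was the lowest. The saline mean of 57.5% ± 2.79 was 5.02 points above the sham mean of 52.5% ± 1.45 (edgeR adjusted p = 0.414). The 5AZA mean was 51.2% ± 0.138 (SD, n = 2 each), a difference of −6.35 points from saline (edgeR adjusted p = 0.210) and of −1.33 points from sham (edgeR adjusted p = 0.927). Over its 37 inner sites the levels were 37.5% and 38.5% in 5AZA, 48.2% and 43.3% in saline, and 41.5% and 40.8% in sham. The 5AZA minus saline difference there was −7.74 points (edgeR adjusted p = 0.0992). Zrsr1 had the same order of groups over all sites and over inner sites. As methylated reads over all reads the 5AZA minus saline difference was −4.08 points and the 5AZA minus sham difference 0.613 points. With each run of equally covered sites counted once they were −4.13 and 0.278 points, so the direction against sham depended on the weighting.

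Grb10, Igf2r, Impact and Nnat act in growth factor signalling, translation control and membrane signalling. Grb10 is an adaptor that binds and restrains the insulin and IGF1 receptors. Its region (chr11:11924001-11928000) had 50.5% and 53.8% in the 5AZA libraries, 55.1% and 54.9% in the saline libraries, and 58.8% and 43.8% in sham 1 and sham 2. The 5AZA pair lay just below the saline pair, and the sham libraries lay outside all others on both sides. The saline mean of 54.99% ± 0.154 was 3.73 points above the sham mean of 51.3% ± 10.6 (SD, n = 2 each; edgeR adjusted p = 0.339). As methylated reads over all reads this difference was 8.68 points, and with a coverage minimum of 20 it was 9.40 points. In 1 stretch of 6 sites, sham 1 had 81.8% at 11 reads, against 39.7% and 34.8% in the saline libraries. As a mean over sites, the saline minus sham difference was 11.2 points without sham 1 and −3.76 points without sham 2. By that measure its direction depended on which sham library was used. Without sham 1 it passed the test (edgeR adjusted p = 0.0179), with the lone sham library assumed to vary like the others.

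Igf2r encodes the receptor that takes up IGF2 for breakdown, and it is expressed from the maternal copy in mouse. The methylated region lies in an intron (chr17:12933001-12937000), at the promoter of the noncoding RNA Airn, which is expressed from the paternal copy. It had 58.5% and 52.9% in the 5AZA libraries, 52.3% and 56.3% in the saline libraries, and 55.1% and 43.9% in sham 1 and sham 2. The 3 groups overlapped. Igf2r and Peg3 were the regions in which the 5AZA mean was not below the saline mean: in Igf2r it was 55.7% ± 4.02 in 5AZA, 54.3% ± 2.87 in saline and 49.5% ± 7.96 in sham (n = 2 each, SD).

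Impact encodes an inhibitor of GCN2 activation, a step in the control of protein synthesis. Its region (chr18:13129001-13134000) had 48.4% and 40.0% in the 5AZA libraries, 49.4% and 48.1% in the saline libraries, and 51.0% and 39.2% in sham 1 and sham 2. The spread within the 5AZA group and within the sham group was wider than any difference between groups. The 5AZA mean was 44.2% ± 5.98 and the saline mean 48.7% ± 0.912 (SD, n = 2 each), a difference of −4.55 points (edgeR adjusted p = 0.602).

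Nnat encodes neuronatin, a small membrane protein of neurons and endocrine cells, and lies within an intron of another gene. Its region (chr2:157384001-157389000) had 57.5% and 52.8% in the 5AZA libraries, 59.6% and 56.3% in the saline libraries, and 54.5% and 50.1% in sham 1 and sham 2. The saline pair was above the sham pair. The saline mean was 5.65 points above the sham mean (edgeR adjusted p = 0.418); the difference was 3.42 points without sham 2 and 7.88 points without sham 1.

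The comparison of obstructed kidney with sham asks whether fibrosis goes with altered methylation at these regions. The mean was higher in saline than in sham in 9 of 10 regions, all but Peg3, and 68.2% of all 1 kb windows in the genome were also higher in saline. No region passed an adjusted p of 0.05 in edgeR's quasi-likelihood test over 89823 windows and regions, of which 0.0501% passed. At an unadjusted p under 0.05 there were 4 regions (Plagl1, Grb10, Zrsr1 and Nnat), beside 10.4% of all windows and regions, and none by limma. Among windows of 10 or more sites and a level of 30% to 70%, which hold more reads, 25.6% had such a p. The saline pair was wholly above the sham pair in 4 of 10 regions (Snrpn, Plagl1, Zrsr1 and Nnat), against 32.3% of all windows. That share is near the background, and Snrpn counts in it only by the narrow margin of saline 2 over sham 2. Here and in the later comparisons, region counts use means over sites, while window shares use methylated reads over all reads. As reads, the saline minus sham difference of Snrpn was −0.298 points. The mean difference over the 10 regions was 3.33 points, with a median of 4.78 points.

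The sham libraries set this value. It was 7.02 points without sham 1, −0.355 points without sham 2, and 3.28 or 3.39 points without either saline library. In single regions, removing sham 2 gave a saline minus sham difference of 9.36 points in Snrpn, 4.55 points in Plagl1, 3.998 points in Zrsr1 and 3.42 points in Nnat. It also gave −17.9 points in Peg3, −3.76 points in Grb10, −2.30 points in Impact and −0.827 points in Igf2r. Peg10 and Mest had 1.42 and −1.48 points. Without sham 2, the saline mean was thus above sham in 5 regions and below it in 5.

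The 1 kb windows with the widest differences are given here by position. Window levels are methylated reads over all reads of the window. Snrpn chr7:67150001-67151000 (4 sites) had 50% and 46.7% in the 5AZA libraries, 60.8% and 58.6% in the saline libraries, and 37.6% and 55.1% in sham 1 and sham 2, with a saline minus sham difference of 13.3 points (edgeR adjusted p = 0.277). Its neighbour chr7:67149001-67150000 (6 sites) went the other way, with 71.3% and 79.9% in the 5AZA libraries, 70.025% and 76.1% in the saline libraries, and 78.6% and 79.6% in sham 1 and sham 2, a difference of −6.04 points (edgeR adjusted p = 0.579). As methylated reads over all reads, adjoining windows of 1 control region thus differed in opposite directions. In the window of 6 sites, however, the sites weighed unequally between libraries. At site 67149786, with a mean level of 90.7%, saline 1 had 10 reads and sham 1 had 100. The direction in that window depends on this weighting and is not taken as a difference within the region.

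Grb10 chr11:11926001-11927000 (30 sites) and Nnat chr2:157386001-157387000 (11 sites) each had a saline minus sham difference of 8.55 points (edgeR adjusted p = 0.533 and 0.414). In the Nnat window the levels were 50.7% and 51.8% in the 5AZA libraries, 58.0% and 59.8% in the saline libraries, and 54.6% and 46.0% in sham 1 and sham 2. In the Grb10 window the saline libraries had 55.1% and 57.6%, against 57.5% in sham 1 and 38.1% in sham 2, so that sham 2 alone stood apart. The other negative differences named were −13.3 points in Peg3 chr7:6683001-6684000 (3 sites) and −3.94 points in Zrsr1 chr11:22874001-22875000 (6 sites) (edgeR adjusted p = 0.449 and 0.856). None of the 19 region windows passed the adjusted threshold. An unadjusted edgeR p under 0.05 was found in 6 (31.6%), beside 10.4% of all windows. Among windows of 10 or more sites and a level of 30% to 70%, the share was 25.6%. Without sham 1 the Grb10 window passed (edgeR adjusted p = 0.0228).

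The comparison of 5AZA with saline asks whether the inhibitor lowers methylation in the obstructed kidney. The 5AZA mean was below the saline mean in 8 of 10 regions, and the mean difference was −2.79 points (−3.73 points over inner sites). Over all windows 20.9% were higher in 5AZA and the mean difference was −3.15 points. No region passed the adjusted threshold in edgeR, beside 1.55% of all windows and regions. Zrsr1 alone had an unadjusted p under 0.05, beside 23.2% of all windows and regions, and none did by limma. The 5AZA pair was wholly below the saline pair in 3 of 10 regions (Snrpn, Grb10 and Zrsr1), against 49.1% of all windows. The regions' share was thus no higher than that of the genome at large. As methylated reads over all reads, the measure used for windows, the difference was 0.866 points in Plagl1 and −0.0732 points in Snrpn. Leaving out either saline or either 5AZA library gave mean differences from −3.06 to −2.52 points.

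The lowest 5AZA minus saline differences among region windows were in the Snrpn window at chr7:67150001-67151000 (−11.3 points, edgeR adjusted p = 0.221), the Nnat window at chr2:157386001-157387000 (−7.65 points, edgeR adjusted p = 0.166) and the Zrsr1 window at chr11:22872001-22873000. The Zrsr1 window holds 33 of the region's 51 sites and had 50.2% and 52.4% in the 5AZA libraries, 59.2% and 56.0% in the saline libraries, and 50.6% and 49.8% in sham 1 and sham 2. Its difference was −6.34 points (edgeR adjusted p = 0.0940), and its saline minus sham difference was 7.39 points (edgeR adjusted p = 0.205). The saline pair stood above the other 4 libraries there. None of the 19 windows passed the adjusted threshold. An unadjusted edgeR p under 0.05 was found in 2 (10.5%), beside 23.2% of all windows. The highest differences were in Igf2r chr17:12935001-12936000 (5.26 points), Mest chr6:30689001-30690000 (2.88 points) and Nnat chr2:157385001-157386000 (2.69 points), with edgeR adjusted p of 0.537, 0.701 and 0.670.

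The comparison of 5AZA-treated obstructed kidney with sham shares its libraries with the other comparisons. The mean difference over the regions was 0.544 points, with 5 regions higher and 5 lower in 5AZA. It was 4.23 points without sham 1 and −3.15 points without sham 2. No region passed the adjusted threshold in edgeR, beside 0.00111% of all windows and regions. Plagl1 alone had an unadjusted p under 0.05, beside 14.7%, and none did by limma. In 0 of 10 regions did both 5AZA libraries lie above both sham libraries, beside 12.9% of all windows. In Zrsr1 both lay below, beside 31.9% of all windows. As methylated reads over all reads, the Zrsr1 difference from sham was 0.613 points.

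Among region windows the highest 5AZA minus sham differences were in Plagl1 chr10:12810001-12811000 (8.24 points), Igf2r chr17:12935001-12936000 (8.01 points) and Grb10 chr11:11925001-11926000 (6.57 points), with edgeR adjusted p of 0.246, 0.513 and 0.263. The Plagl1 window holds all 40 sites of its region and had 43.9% and 53.5% in the 5AZA libraries, 47.5% and 48.1% in the saline libraries, and 44.6% and 36.3% in sham 1 and sham 2. The groups overlapped, since 5AZA 1 lay below sham 1. None of the 19 windows passed the adjusted threshold here. An unadjusted edgeR p under 0.05 was found in 2 (10.5%), beside 14.7% of all windows. The lowest were in Peg3 chr7:6683001-6684000 (−10.9 points), Zrsr1 chr11:22874001-22875000 (−5.13 points) and Snrpn chr7:67149001-67150000 (−3.54 points), with edgeR adjusted p of 0.414, 0.706 and 0.754.

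**Figure D3:**
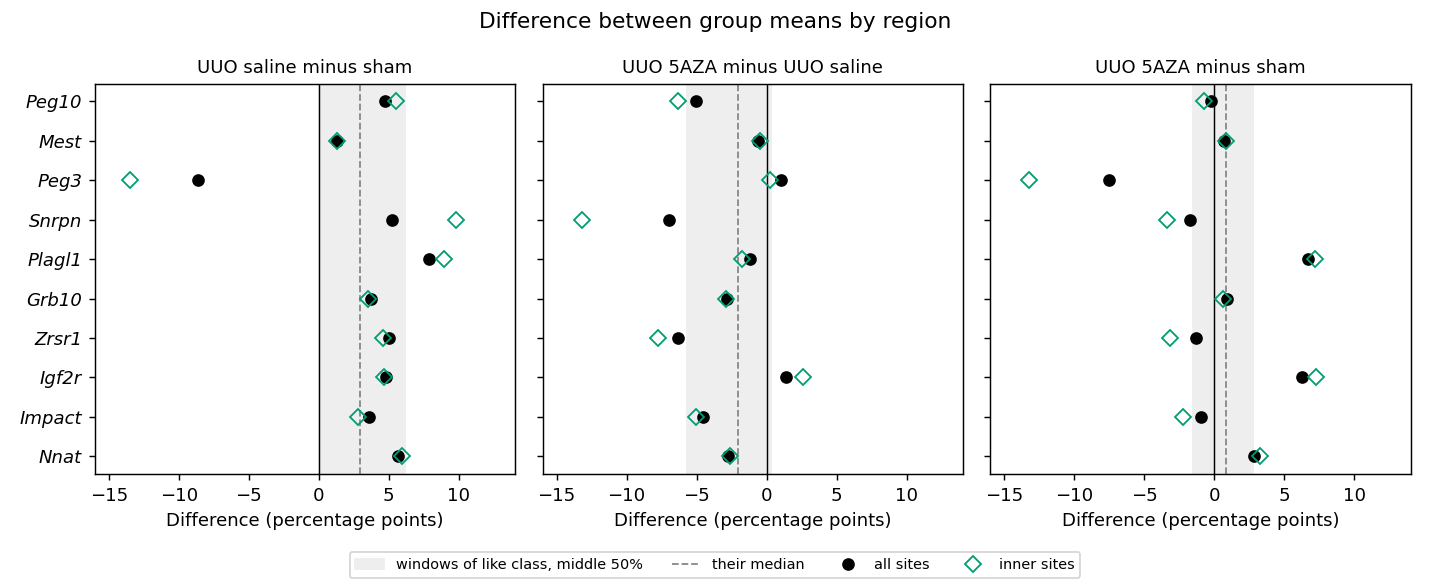
Difference between group means (x axis, percentage points) for each region (y axis) in the 3 comparisons, over all sites (black dots) and inner sites (open diamonds), beside the middle 50% (grey band) and median (dashed line) of 2179 windows of like class outside the regions. Peg3 lies left of the band in both comparisons with sham, and in the 5AZA minus saline comparison Snrpn moves most between all and inner sites. Region values rest on means over sites, and window values on methylated reads over all reads.

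The regions were set beside class windows elsewhere, those with 10 or more sites and a mean level of 30% to 70%. The region windows were not all of this class. Their medians were 8 sites and a level of 53.5%, against 13 sites and 39.65% in class windows. In these 2179 windows the median saline minus sham difference was 2.92 points, the 5AZA minus saline difference −2.03 points and the 5AZA minus sham difference 0.802 points. The 19 region windows had medians of 3.41, −1.21 and 1.06 points. The middle 50% of class windows ran from 0.0298 to 6.13 points for saline minus sham and from −5.71 to 0.329 points for 5AZA minus saline, and both medians of the region windows lie inside. The replicate libraries differed by a median of 2.54 points in 5AZA, 2.59 points in saline and 8.60 points in sham over the region windows, and by 2.67, 2.90 and 3.87 points over class windows. The wider gap between the sham libraries at the regions than in class windows was not tested, and the region windows hold fewer sites by median.

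Differences at high and at inner sites had the same sign. The high sites averaged 85.6% ± 0.467 in 5AZA, 87.2% ± 0.374 in saline and 83.1% ± 3.20 in sham (n = 2 each, SD). The inner sites averaged 41.3% ± 0.705 in 5AZA, 45.1% ± 0.811 in saline and 40.1% ± 5.82 in sham. The 5AZA minus saline difference was −1.61 points at high sites and −3.78 points at inner sites, and the saline minus sham difference 4.08 and 4.95 points. No test of the difference between site kinds was made.

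Inner sites came in stretches separated by high sites, 35 in all with a median of 5 sites. Neighbouring sites of a stretch share many of their reads, though sites near opposite ends can be covered by different reads. The range of levels within a stretch of 2 or more sites in a library had a median of 4.64 to 10.7 points across libraries. Between libraries the ranges were wider by median, but libraries share no reads while neighbouring sites of a stretch do. The 2 kinds of range are thus not alike, and no conclusion is drawn from setting them side by side. The gap between the lowest and highest of the 6 libraries was 6.95 to 47.96 points per stretch with a median of 22.1 points, above 30 points in 7 stretches and at most 20 points in 16.

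**Figure D4:**
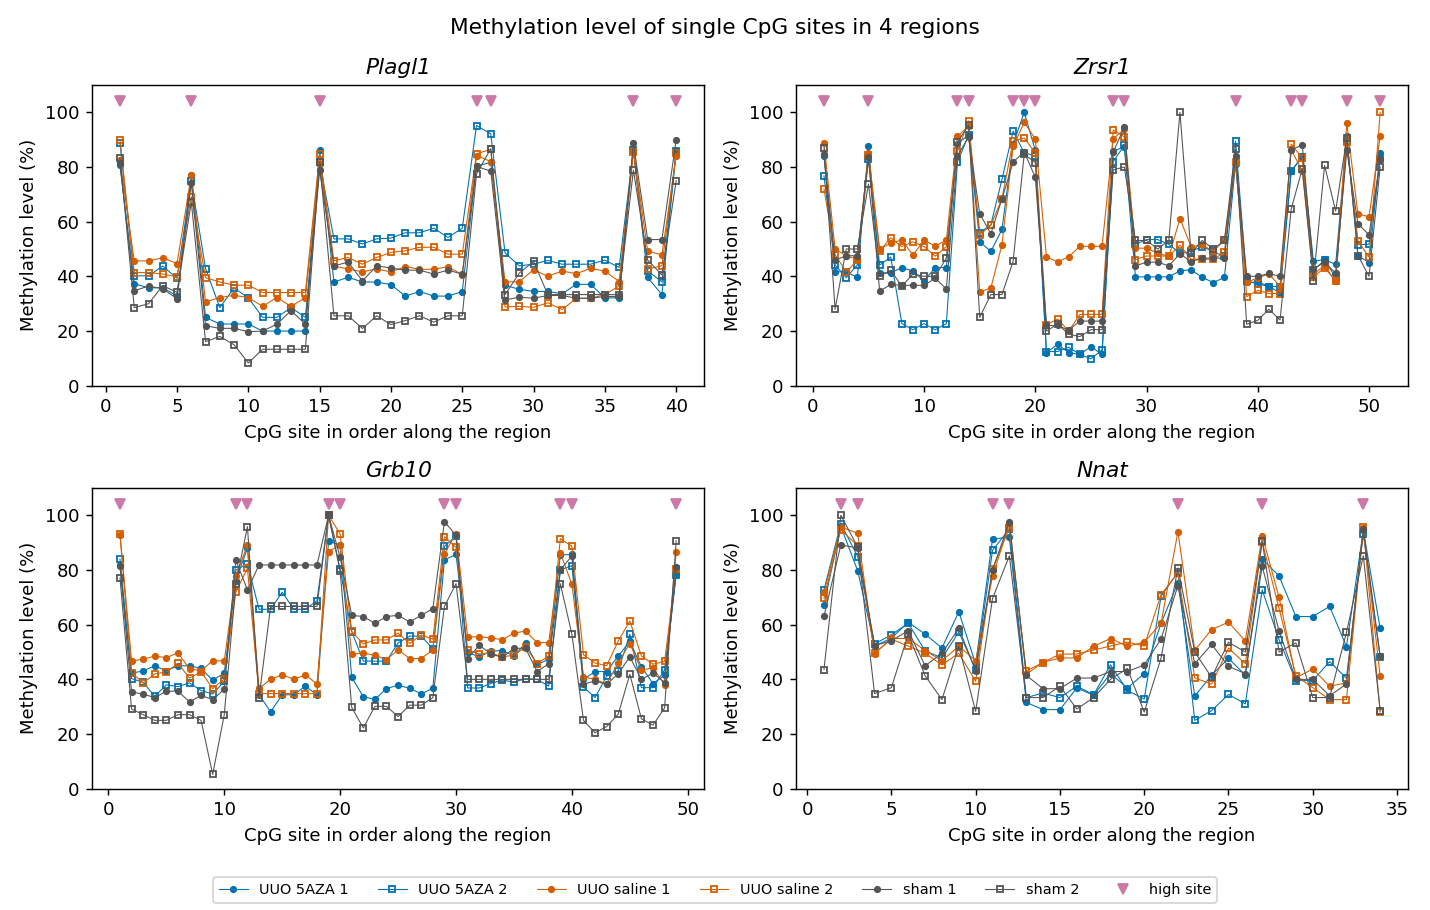
Methylation level (y axis, percent) of each used CpG site in order along Plagl1, Zrsr1, Grb10 and Nnat (x axis, site rank), 1 line per library, with triangles over the high sites. Between high sites, levels form steps, many of them nearly flat. Others are not, as in 1 Zrsr1 stretch of 3 sites with 38.3% to 80.6% in sham 2. Steps differ in level between libraries, as at the 6 Grb10 sites where sham 1 had 81.8%.

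The widest stretch was in Grb10 (chr11:11925866-11925891, 6 sites), with 33.9% and 67.2% in the 5AZA libraries, 39.7% and 34.8% in the saline libraries, and 81.8% and 61.1% in sham 1 and sham 2. Coverage there was 11 to 60 reads. At its site 11925884 sham 1 had 9 of 11 reads methylated (81.8%, exact binomial interval 48.2% to 97.7%) and saline 1 had 24 of 60 (40.0%, 27.6% to 53.5%). The intervals cover counting error only, at a confidence level of 95%. The 5AZA libraries lay on either side of sham 2 and were thus split across both other groups.

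The next was in Zrsr1 (chr11:22872602-22872750, 6 sites), with 12.8% and 12.2% in the 5AZA libraries, 48.8% and 24.2% in the saline libraries, and 22.6% and 20.1% in sham 1 and sham 2. Saline 1 stood apart from the other 5 libraries. At its site 22872609 the exact interval was 31.6% to 59.6% in saline 1 (24 of 53 reads), and 5.11% to 31.9% in 5AZA 1 (5 of 33 reads). The 2 stretches that followed had gaps of 33.8 points (Grb10, chr11:11926196-11926252, 8 sites) and 32.8 points (Zrsr1, chr11:22872184-22872221, 3 sites), and in both sham 2 was the lowest library.

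With each of the 35 stretches taken as 1 site, replicates in the 5AZA and saline groups differed by about what read sampling gives. Each was given the median coverage of its sites, which can misstate the expected variance where sites are covered by different reads. The mean squared difference between replicates divided by the variance expected from read counts was 1.20 in 5AZA, 0.914 in saline and 1.70 in sham. Between libraries of different groups this ratio ran from 1.23 to 2.09, a range that includes the value of the sham pair. The SD of level between stretches within a library was 7.63 to 12.6 points.

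**Figure D5:**
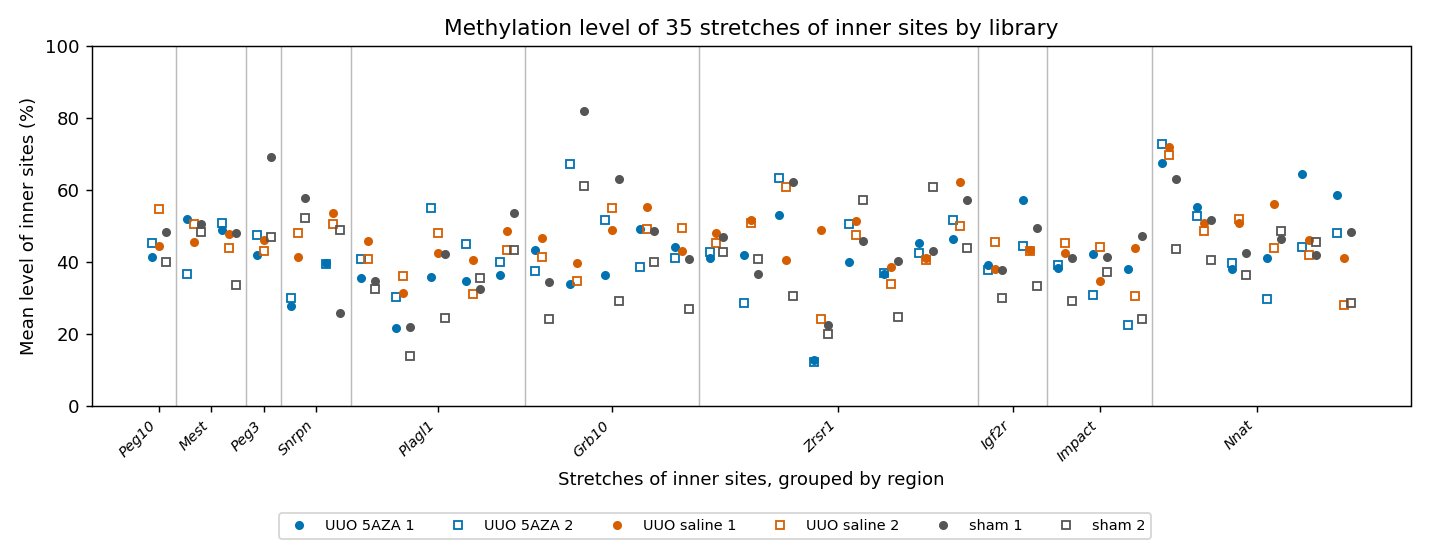
Mean level of inner sites (y axis, percent) in each of 35 stretches (x axis, grouped by region), with UUO 5AZA, UUO saline and sham libraries from left to right within a stretch. The medians of the libraries lie between 37.2% and 46.3%, and the Grb10 stretch with sham 1 at 81.8% and the Zrsr1 stretch with the 5AZA libraries at 12.8% and 12.2% stand out.

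The 6 other maternally methylated intervals measured in the same way were intermediate over inner sites too. Kcnq1ot1 had 31.0% ± 12.002 in 5AZA, 50.4% ± 14.4 in saline and 38.6% ± 11.8 in sham (n = 2 each, SD). Mcts2 had 45.1% ± 0.615 in 5AZA, 54.8% ± 0.228 in saline and 49.4% ± 3.35 in sham. Inpp5f had 50.6% ± 3.73 in 5AZA, 49.8% ± 3.24 in saline and 35.03% ± 9.77 in sham. The remaining maternally methylated intervals (Peg13, Gnas exon 1A, and Nespas with Gnasxl) had group means between 35.9% and 48.8%. Over all sites the paternally methylated intervals had 77.0% to 86.9% in the 6 libraries in H19 and 88.8% to 98.1% in Dlk1-Meg3. These lie above the maternally methylated intervals over all sites, but most of their few sites are high sites. A difference by methylated parent thus cannot be told apart from the mix of sites. H19 had 1 inner site of 4, with 55.3% ± 4.08 in 5AZA, 50.05% ± 8.55 in saline and 51.5% ± 5.35 in sham, and Dlk1-Meg3 had 4 sites and none inner. Over inner sites the 5AZA pair was below the saline pair in Kcnq1ot1, Mcts2, Peg13, and Nespas with Gnasxl, and overlapped it in Gnas exon 1A, Inpp5f and H19, beside 49.1% of all windows below. That share uses methylated reads over all reads, while the intervals use means over inner sites. The margin was narrow in Peg13 (36.4% in 5AZA 1 against 36.6% in saline 1) and in Kcnq1ot1 (39.5% against 40.2%). Over all sites the 2 groups overlapped in Peg13.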

How the data were processed

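Reduced representation bisulfite libraries were made, per the labels' protocols, by MspI digestion, end repair with methylated dCTP, selection of inserts of 40 to 120 and 120 to 220 bp, and bisulfite conversion. Bowtie and the mm9 build are named in the submitters' processing notes. Which caller made the methylation calls is not given in the sources consulted. For each CpG site the authors deposited a count of reads and a count of methylated reads, and the fraction the authors deposited beside them is their ratio. Positions are printed 1-based. No molecular identifiers are described, so intervals cover counting error only.

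Methylated and unmethylated counts, summed over sites with 10 or more reads in all 6 libraries, went into the quasi-likelihood test of edgeR 4.0.16 under R 4.3.3 ( an intercept per library, group effects, 1 common dispersion). The test ran over 89813 windows of 1 kb with 3 or more sites plus the 10 regions, with Benjamini-Hochberg adjustment over all 89823 and a threshold of 0.05. The test was checked on simulated data. A difference between group means is in percentage points, the group named first minus the other, with SD over 2 libraries. A stretch is a run of inner sites between high sites of a region. Alternatives were coverage minimums of 5 and 20, other choices of sites, read weighting, limma 3.58.1, only the libraries compared, each library left out, and a replicate block.

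The members, lists and windows were chosen with earlier results of these data known. Windows were named as the 3 highest and 3 lowest differences per comparison, since none passed the test. The 8 further imprinted intervals are named without positions. An mm9 genome or annotation was not used here, so single sites are not assigned to exons or introns.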

Additional observations from a re-analysis of the deposited data

How the results depend on the processing

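No region or region window passed the adjusted threshold in any comparison under the alternatives run, with 1 exception: without sham 1, Grb10 and its window at chr11:11926001-11927000 passed for saline minus sham (1 region and 1 window; edgeR adjusted p = 0.0179 and 0.0228). Across the alternatives, 0 to 6 regions had an unadjusted p under 0.05 for saline minus sham, 0 to 2 for 5AZA minus saline and 0 to 3 for 5AZA minus sham. In the main edgeR test the shares of all windows and regions were 10.4%, 23.2% and 14.7%. The numbers of regions and windows called with each library left out ranged from 0 to 1 for saline minus sham and were 0 for the other comparisons. The mean 5AZA minus saline difference of −2.79 points was −3.64 points with only region sites of 20% to 80%, −3.73 points with only sites under 65%, −2.42 points with each run of equally covered sites counted once, and −1.83 points as methylated reads over all reads; the cause was not tested. The site filter under 65% and the counting of runs were chosen after seeing the data. With each library left out in turn, the mean difference ranged from −0.355 to 7.02 points for saline minus sham, from −3.06 to −2.52 for 5AZA minus saline, and from −3.15 to 4.23 for 5AZA minus sham. Without a library, 35 of 40 region differences kept their sign for saline minus sham, 34 of 40 for 5AZA minus saline and 30 of 40 for 5AZA minus sham; under the other alternatives 79, 76 and 78 of 80 did. With all libraries kept, Snrpn moved most, with a 5AZA minus saline difference of −0.0732 points as reads and −13.2 points with sites under 65%. The 5AZA and saline libraries share the numbers 1 and 2, but 1 sham library has none, and same-numbered deviations had a correlation of 0.319 over 19 region windows and 0.0762 over all windows; with 2 pairs the numbers were not taken as a pairing, and with the replicate block 0 regions were called for 5AZA minus saline. Sham 2 was the shallowest library, with a median of 38 reads at region sites, and was also labelled as a sham for ischemia/reperfusion. Depth and kind of sham cannot be told apart in the spread of the sham group.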
